A study of Arabidopsis thaliana with 48 samples.

Results

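The type-A response regulators of Arabidopsis thaliana are a family of 10 small proteins, and each was taken here by its locus identifier, so that they account for 10 of the 27420 genes in the count table. The set was chosen by a measured value, its cytoplasmic counts: 1 member, ARR8 (AT2G41310, listed under the symbol RR3 in RefSeq), held more counts than any other gene in every cytoplasmic library. Its cytoplasmic level, its share of the counts and its difference between fractions are therefore given as descriptions with no test. The heat and genotype comparisons of ARR8, and every comparison of the 9 relatives, did not enter that choice. Of the 10 genes, 7 had counts enough for the low-count filter and for testing, whereas ARR15, ARR16 and ARR17 did not pass and are described by their counts.

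The study sequenced RNA from nuclear and cytoplasmic fractions of 14 d plants, per the labels' protocols from their rosettes although the tissue label reads seedling, to examine RNA export under heat stress in tho5ab. Col-0 is the standard laboratory accession, and tho5ab is a mutant named for THO5A and THO5B, genes for a subunit of the THO/TREX complex that couples transcription to mRNA export. Plants of each genotype were kept at 21 °C or moved to 37 °C for 3 h and harvested without recovery, which gave 8 groups (2 genotypes, 2 fractions and 2 temperatures) of 6 libraries each and 48 libraries in all. Fractions were separated by differential centrifugation, ERCC spike-in RNA was added, and ribosomal RNA was depleted, in all groups alike.

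Library totals ran from 1025185 to 2174279 counts in the cytoplasm and from 2601946 to 19914838 in the nuclei, so low genes were measured with more counts in the nuclei. Levels are given as CPM, the count relative to the library total, on totals scaled by the trimmed mean of M-values (TMM), and levels of different genes were compared per kb of exon. The libraries labelled tho5ab held 0 counts of THO5B (AT1G45233) in all 12 cytoplasmic samples, and their nuclei averaged 1.19 CPM at 21 °C and 0.128 CPM at 37 °C against 6.14 and 4.81 CPM in Col-0. THO5A (AT5G42920) was not lower throughout: nuclear means were 98.2 CPM in tho5ab and 34.2 CPM in Col-0 at 21 °C, and 39.7 against 184.9 CPM at 37 °C. The table holds no positions of reads within a gene, so a remaining part of a transcript cannot be told apart from a whole one. Nothing in the labels says that same-group libraries came from separate plants or cultures, so p-values measure the spread between these libraries.

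Cytokinins are plant hormones read by a phosphorelay. Histidine kinase receptors (AHK2 to AHK4) pass a phosphoryl group to histidine phosphotransfer proteins (AHPs), which carry it to response regulators. Type-B regulators such as ARR1 are DNA-binding transcription factors that activate cytokinin target genes, whereas type-A regulators consist of a receiver domain with short extensions, lack a DNA-binding output, and dampen the pathway that induces most of them. In shoots they act in the meristem and in leaves, and ARR4 also binds the photoreceptor phytochrome B.

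The stretch that defines the family is the receiver domain, in which a conserved aspartate accepts the phosphoryl group. The coding sequence around that codon is shown for the 10 genes because it shows how alike they are where the relay reaches them; each run has 45 bases of the coding strand from RefSeq (TAIR10.1), and the capitals mark the GAT codon of the acceptor aspartate.
ARR8: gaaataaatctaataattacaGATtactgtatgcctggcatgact
ARR9: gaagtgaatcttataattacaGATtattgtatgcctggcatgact
ARR3: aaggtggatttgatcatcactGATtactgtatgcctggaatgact
ARR4: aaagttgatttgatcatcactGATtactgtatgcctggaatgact
ARR5: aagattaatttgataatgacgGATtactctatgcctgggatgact
ARR6: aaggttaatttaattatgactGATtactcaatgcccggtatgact
ARR7: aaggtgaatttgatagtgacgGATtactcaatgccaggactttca
ARR15: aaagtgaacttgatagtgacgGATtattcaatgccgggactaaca
ARR16: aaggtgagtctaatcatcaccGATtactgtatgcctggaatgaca
ARR17: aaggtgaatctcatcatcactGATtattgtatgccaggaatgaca
The acceptor is residue 78 of 225 in ARR8 and residue 80 of 234 in ARR9, its closest relative with 74.4% identity over 223 aligned residues. The genes fell into pairs by protein identity: ARR3 and ARR4 shared 79.1%, ARR5 and ARR6 81.4%, ARR7 and ARR15 72.3%, and ARR16 and ARR17 86.7%. ARR8 was 55.4% identical to ARR5, its second closest relative.

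ARR8 lies on chromosome 2 (chr2:17221840-17224880, plus strand, TAIR10.1, with 2370 bp of exon). It held 4939071 counts over the 48 libraries. The next relatives by total were ARR9 with 3520 and ARR4 with 3483 counts, followed by ARR6 with 1408, ARR5 with 1029, ARR3 with 1015 and ARR7 with 815. ARR16 held 205, ARR15 61 and ARR17 20 counts.

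In the cytoplasm ARR8 was the top gene in 24 of 24 libraries. It took 10.1% of all counts on average, from 5.84% to 14.0% per library, and the 95% Wilson interval of the highest share ran from 13.9% to 14.0%, counting error only. The next cytoplasmic genes were CAB1, a light-harvesting chlorophyll-binding protein, with a mean of 2.79%, LHB1B2, another one, with 1.95%, and the heat-shock genes AT1G53540 with 1.28%, HSP17.4 with 1.27% and HSP90.1 with 1.26%. These means pool temperatures at which the order differs: CAB1 held 4.48% at 21 °C and 1.10% at 37 °C, whereas each of the 3 heat-shock genes held at most 0.00429% at 21 °C and from 2.51% to 2.56% at 37 °C. By group the cytoplasmic share of ARR8 was 10.9 ± 1.73% at 21 °C and 8.49 ± 1.31% at 37 °C in Col-0, and 12.2 ± 1.19% and 8.93 ± 1.94% in tho5ab (SD, n = 6 each).

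In CPM, the cytoplasmic level of ARR8 in Col-0 at 21 °C ranged from 118200 to 199200 with a median of 159900. At 37 °C in Col-0 it ranged from 111000 to 165400 with a median of 127200. In tho5ab it ranged from 135800 to 182500 at 21 °C, with a median of 164600, and from 91850 to 254200 at 37 °C, with a median of 187200. These 4 cytoplasmic groups overlapped one another, and tho5ab at 37 °C was the most spread, holding both the lowest and the highest library.

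In the nuclei the same gene was lower but still abundant. Its level in Col-0 ranged from 2754 to 4325 CPM at 21 °C, with a median of 3602, and from 3499 to 5353 CPM at 37 °C, with a median of 4194. In tho5ab nuclei it ranged from 642 to 2585 CPM at 21 °C, with a median of 1152, and from 1690 to 3271 CPM at 37 °C, with a median of 2711. At either temperature every tho5ab nuclear library was below every Col-0 nuclear library. The nuclear share of counts averaged 0.477%, and the median rank of ARR8 among all genes was 2 at 21 °C and 1 at 37 °C for Col-0, and 12.5 and 12 for tho5ab. Nuclei minus cytoplasm, on the log2 scale, was -5.47 at 21 °C and -4.96 at 37 °C for Col-0, and -6.90 and -6.08 for tho5ab. The size of these differences depends on the TMM scaling. As an unscaled share of counts, ARR8 in Col-0 at 21 °C averaged 10.9% in the cytoplasm and 0.629% in nuclei, a narrower gap.

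**Figure D1:**
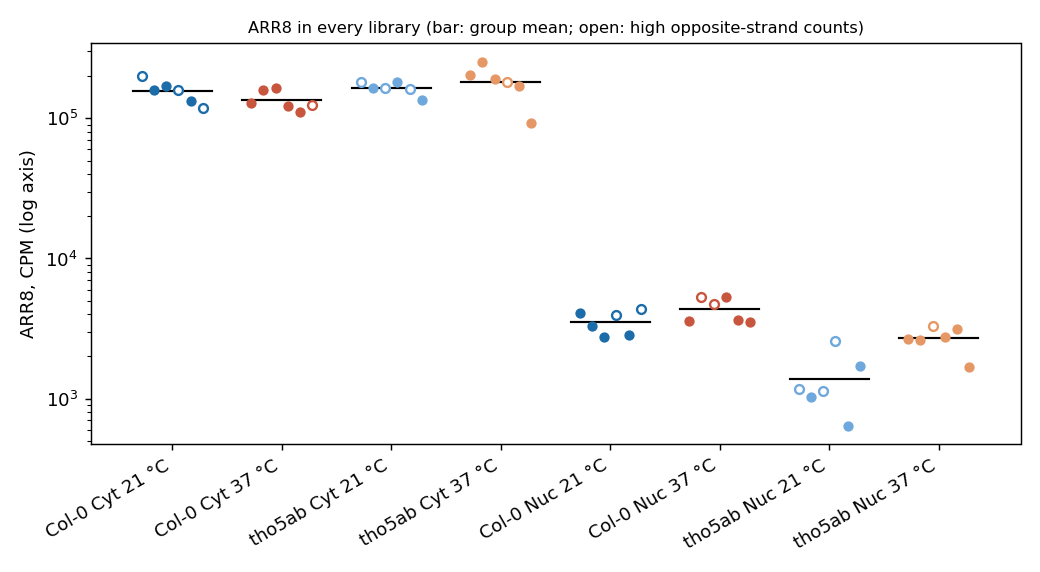
ARR8 in each of the 48 libraries, in CPM on a log axis, by group, with 1 point per library, a bar at the group mean, and open points for the 16 libraries with high opposite-strand counts. The cytoplasmic libraries sit between 91850 and 254200 CPM, and the nuclear libraries between 642 and 5353 CPM with tho5ab below Col-0 at both temperatures.

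Before the relatives are set beside ARR8, features of the annotation and the libraries that touch these counts are given. A long noncoding RNA gene, AT2G09250, lies on the opposite strand wholly within the last exon of ARR8 (chr2:17224503-17224801, minus strand, 299 bp) and is not among the genes of the table. Its sequence aligned to AT7SL-1 (AT4G02970) at chr4:1318940-1319187 with 73.0% identity over 256 bp. AT7SL-1 is named for the 7SL RNA of the signal recognition particle, which targets secreted proteins to the endoplasmic reticulum. RefSeq lists the gene as protein-coding. A better alignment, 85.1% over 295 bp, lay on chromosome 1 within AT1G49700 on its opposite strand, and 2 more lay on chromosome 4. The 30 bases of AT2G09250 and AT7SL-1 that match best are shown from RefSeq (TAIR10.1) because they place a stretch of 7SL-like sequence inside the ARR8 exon; the first is chr2:17224696-17224725 on the minus strand and the second chr4:1318970-1318999 on the plus strand, and the capitals mark the 27 of 30 identical bases.
AT2G09250: GTgGaCGCTGCTCTGTGAAaCCAGCCTCAC
AT7SL-1: GTaGtCGCTGCTCTGTGAAgCCAGCCTCAC
Separately, the ARR8 gene span, introns included, had 3 matches elsewhere in the genome at 95% identity or more over 50 bp or more. The longest ran over 303 bp, and together they covered 351 of its 2370 exon bases, or 14.8%. None of the 9 relatives had such a match. How reads with several matches were counted is not given in the sources used here, so that the ARR8 count can hold reads of near-identical sequence elsewhere.

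The libraries also differed in how many counts fell on genes lying opposite a higher gene. Over 82 gene pairs in which 1 gene lies within a host of at least 50 CPM on the other strand, 16 of the 48 libraries had high opposite-strand counts. Each group holds 1 to 3 of them, unevenly with temperature. Col-0 cytoplasm has 3 at 21 °C and 1 at 37 °C, and Col-0 nuclei have 2 at each temperature. Both tho5ab fractions have 3 at 21 °C and 1 at 37 °C. The strand setting of the counting is not given in the sources used here. In the cytoplasm the median of ARR8 was 162600 CPM in the 8 such libraries and 162500 CPM in the other 16. In nuclei its mean was higher in these libraries within each group: 4124 against 3243 CPM in Col-0 at 21 °C, 5048 against 3999 CPM in Col-0 at 37 °C, 1629 against 1129 CPM in tho5ab at 21 °C, and 3271 CPM in the single such library against 2573 CPM in tho5ab at 37 °C. AT7SL-1 differed far more between the sets. It had a cytoplasmic median of 1405 CPM in the 8 libraries, from 496.5 to 1961, and of 1.40 CPM in the other 16, from 0 to 17.3. In the nuclei it ranged from 122.8 to 551.8 CPM and from 0.111 to 2.30 CPM, respectively. The part of 7SL-like sequence in the ARR8 counts was not tested.

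Several relatives differed between the sets in nuclei as well. ARR6 overlaps the protein-coding gene AT5G62910 on the opposite strand by 348 bp (ARR6, AT5G62920, at chr5:25252007-25254318, minus strand; AT5G62910 at chr5:25250256-25252354, plus strand). In nuclei ARR6 ranged from 3.32 to 11.3 CPM in the 8 libraries with high opposite-strand counts and from 0.779 to 4.76 CPM in the other 16. In Col-0 nuclei at 37 °C, for example, the 2 such libraries held 9.10 and 10.9 CPM and the other 4 from 1.57 to 2.01 CPM, whereas in Col-0 nuclei at 21 °C the 2 such libraries, at 3.32 and 4.71 CPM, lay within the range of the other 4, 2.75 to 4.76 CPM. AT5G62910 itself had nuclear ranges of 14.4 to 77.9 and 15.7 to 102.4 CPM in the 2 sets. ARR6 values are therefore uncertain, and whether reads of AT5G62910 entered them was not tested. ARR9 (AT3G57040, chr3:21109059-21111567, plus strand) overlaps the noncoding AT3G08825 by 231 bp on the opposite strand, a gene that is not in the table. Its nuclear mean was lower in the libraries with high opposite-strand counts in each group. In Col-0 at 21 °C they held 7.18 and 8.02 CPM against 8.99 to 14.1 CPM in the others. The means were 2.81 against 4.55 CPM in Col-0 at 37 °C, and 8.25 against 11.1 CPM and 2.49 against 6.32 CPM in tho5ab. ARR5 was also lower in each, for example 0.53 against 1.65 CPM in Col-0 nuclei at 37 °C, and so was ARR3, with 0.648 against 1.58 CPM there. In the 32 other libraries alone the heat calls of ARR3 and ARR9 in Col-0 nuclei and of ARR3 in tho5ab nuclei held, as did the lower ARR8 in tho5ab nuclei, with -1.50 at 21 °C (edgeR adjusted p = 0.000103) and -0.59 at 37 °C (edgeR adjusted p = 0.037).

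**Figure D2:**
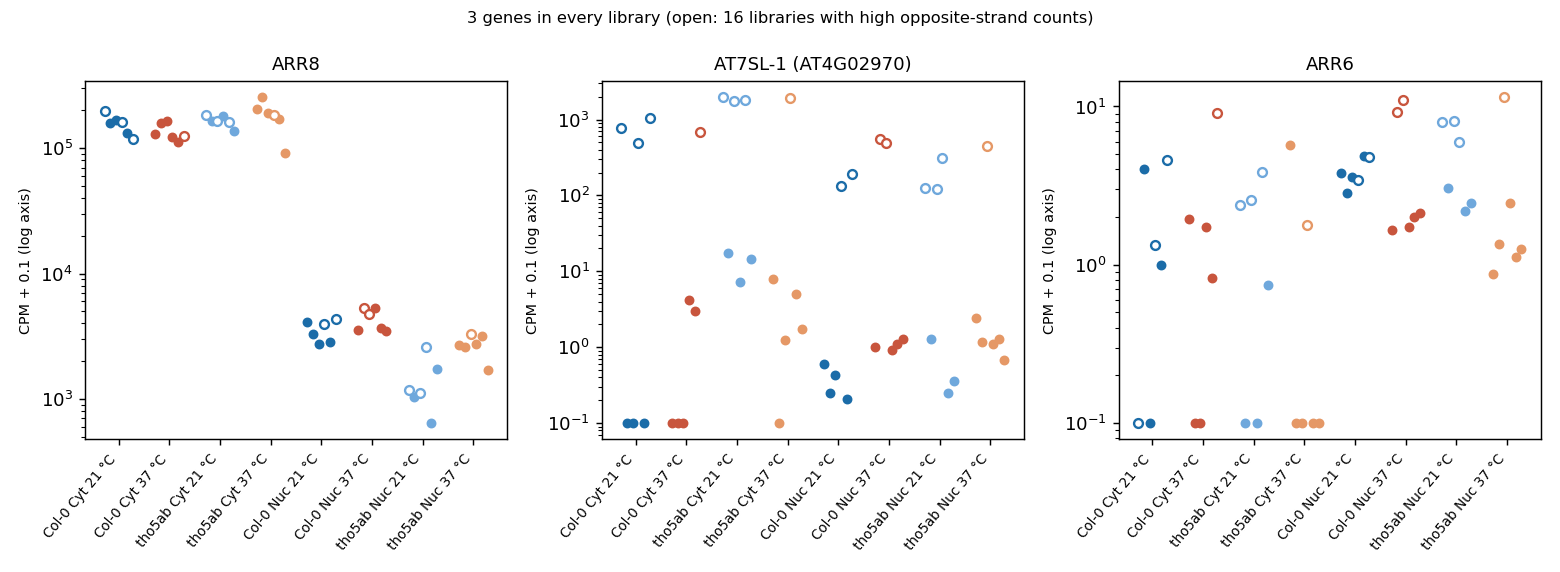
ARR8, AT7SL-1 and ARR6 in each library by group, in CPM plus 0.1 on log axes, with open points for the 16 libraries with high opposite-strand counts and filled points for the other 32. AT7SL-1 separates the sets in both fractions, ARR6 is higher in the open points of 3 nuclear groups and not of Col-0 nuclei at 21 °C, and the ARR8 ranges overlap.

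None of the relatives shared the level of ARR8. Per kb of exon, ARR8 was first in all 8 groups, with 66040 CPM per kb in Col-0 cytoplasm at 21 °C and 10.1 for ARR4, the second. The ratio of first to second was 6513 there, 15990 in Col-0 cytoplasm at 37 °C, 8948 in tho5ab cytoplasm at 21 °C and 33230 in tho5ab cytoplasm at 37 °C. In nuclei it was 274.2 and 544.2 in Col-0 at 21 °C and 37 °C, with ARR4 second, and 114.1 and 378.2 in tho5ab, with ARR9 second. Summed over the 9 relatives, a cytoplasmic library held 4 to 53 counts, with a median of 21, beside 108026 to 209410 counts of ARR8. The sum was at most 0.0403% of the ARR8 count in the cytoplasm and at most 3.66% in the nuclei, where it ran from 114 to 1202 counts.

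The closest relative of ARR8 by protein, ARR9, had a mean cytoplasmic level of 3.64 ± 1.39 CPM in Col-0 at 21 °C (SD, n = 6), from 15 counts at most in any cytoplasmic library. Its nuclear level there ranged from 7.18 to 14.1 CPM with a median of 9.08. ARR9 was thus far below ARR8 in both fractions in every library.

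ARR4 (AT1G10470, chr1:3441988-3444360, minus strand) and its pair ARR3 (AT1G59940, chr1:22065617-22067233, minus strand), both linked to circadian period in Arabidopsis, differed from each other. ARR4 was counted in all 24 cytoplasmic libraries, up to 34 counts, whereas ARR3 reached 9 counts and was at 0 in 11 of them. In Col-0 cytoplasm at 21 °C ARR4 averaged 10.1 and ARR3 1.91 CPM per kb. In Col-0 nuclei at 21 °C the means were 5.44 ± 0.77 for ARR4 and 3.35 ± 0.68 for ARR3 per kb (SD, n = 6).

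ARR5 (AT3G48100, chr3:17758427-17760950, minus strand), whose promoter is widely used as a cytokinin reporter, and its pair ARR6 were at 0 in 15 and 10 of the 24 cytoplasmic libraries. ARR7 (AT1G19050, chr1:6577833-6579314, minus strand), which the stem-cell factor WUSCHEL represses in the shoot meristem, was at 0 in 14. In Col-0 nuclei at 21 °C, where all 3 were counted in every library, they averaged 2.40 for ARR5, 2.59 for ARR6 and 3.35 CPM per kb for ARR7. ARR3, ARR5, ARR6 and ARR7 lay close together there, within the spread of their libraries, and no order among them is drawn.

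ARR15 (AT1G74890, chr1:28131447-28133025, minus strand), the pair of ARR7, was at 0 in 22 of 24 cytoplasmic libraries and reached 2 counts in the others. ARR16 (AT2G40670, chr2:16969673-16972113, plus strand) was at 0 in 23 and reached 3 counts in 1. ARR17 (AT3G56380, chr3:20905264-20906397, plus strand) had 0 counts in all 24; over the 6 libraries of Col-0 cytoplasm at 21 °C, 3 counts would amount to 0.525 CPM, which is the level a count of 0 allows. In Col-0 nuclei at 21 °C the means were 0.508 CPM for ARR16, 0.213 for ARR15 and 0.079 for ARR17. A lower level of these genes in the cytoplasm was not detectable at this depth.

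**Figure D3:**
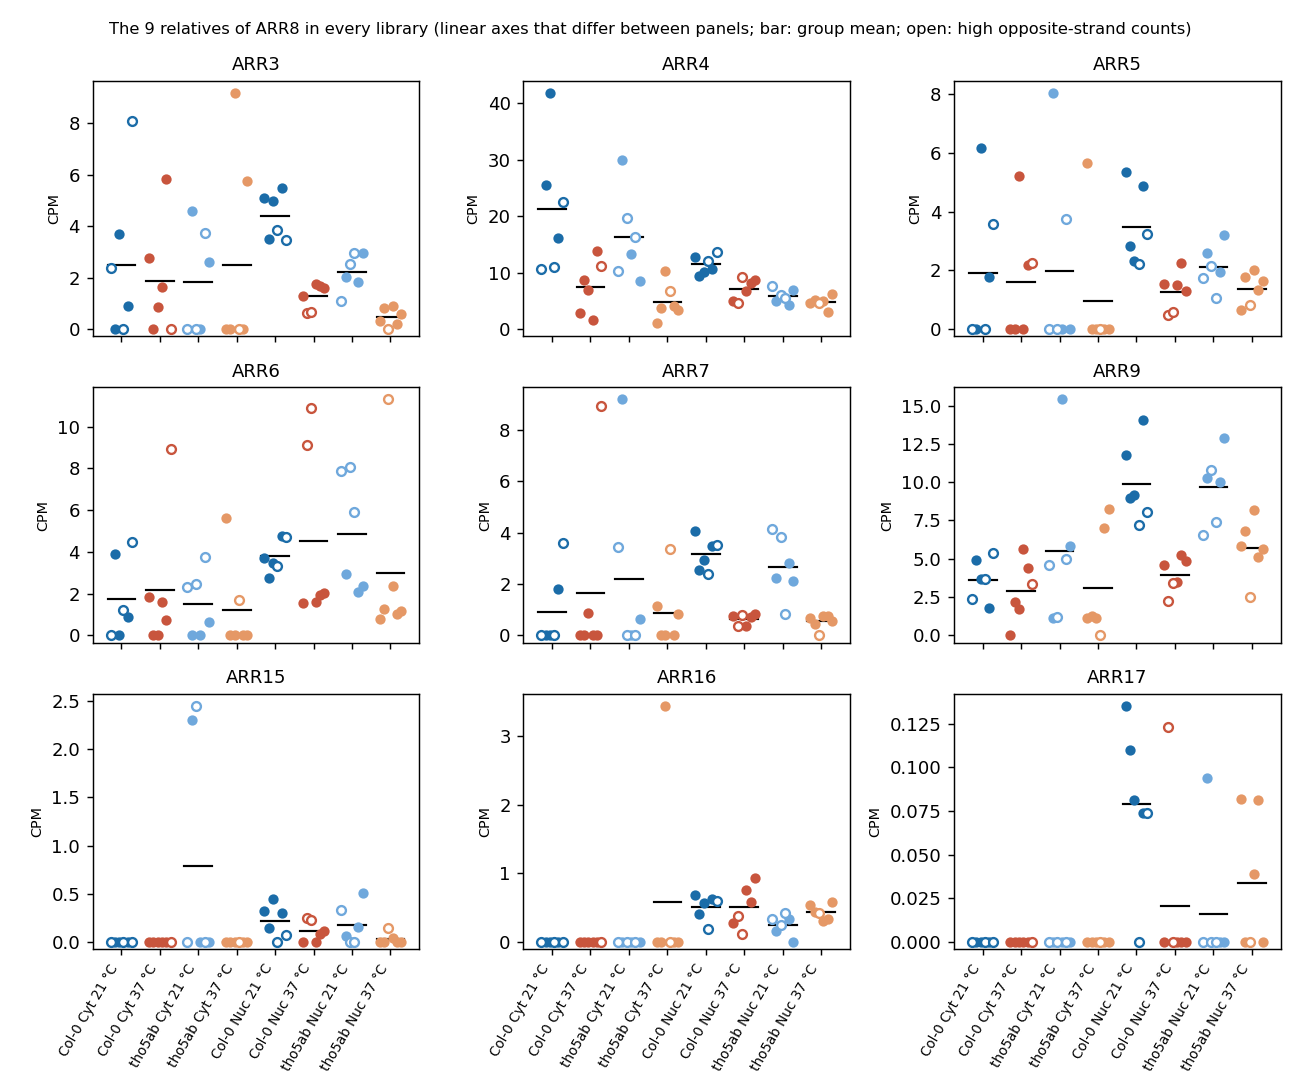
The 9 relatives of ARR8 in each of the 48 libraries, in CPM on linear axes that differ between panels, with 1 point per library, a bar at the group mean, and open points for libraries with high opposite-strand counts. ARR4 in the cytoplasm reaches 41.9 CPM, the highest value of any relative, and ARR3 and ARR7 lie lower in the heated nuclei than in nuclei at 21 °C.

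Several relatives were lower after heat, and no tested relative passed as higher. Counted in either direction, the share of the 7 tested regulators that passed was near or below that of all genes tested. In Col-0 nuclei ARR7 ranged from 2.39 to 4.06 CPM at 21 °C, with a median of 3.20, and from 0.369 to 0.821 CPM at 37 °C, with a median of 0.745. ARR3 ranged from 3.46 to 5.50 CPM at 21 °C, with a median of 4.42, and from 0.615 to 1.75 CPM at 37 °C, with a median of 1.45. ARR9 ranged from 7.18 to 14.1 CPM at 21 °C and from 2.22 to 5.25 CPM at 37 °C, with medians of 9.08 and 4.06. All 3 were lower in each heated library than in any library at 21 °C. On the log2 scale the changes were -2.26 ± 0.69 for ARR7 (SE, edgeR adjusted p = 0.00567), -1.76 ± 0.65 for ARR3 (edgeR adjusted p = 0.0239) and -1.30 ± 0.38 for ARR9 (edgeR adjusted p = 0.00451). These were 3 of the 7 tested regulators, none of them higher, beside 45.7% of all genes tested that changed in either direction and 23.8% that fell. The median over the 7 was -1.30 and over all genes -0.06. The ARR3 call did not hold without replicate 1, where its adjusted p was 0.0607, or without replicate 3, where it was 0.0778. It passed in 13 of 16 alternatives, and a fit with a term for replicate number also lost it.

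In tho5ab nuclei ARR7 and ARR3 fell as well, and ARR8 rose. ARR7 ranged from 0.843 to 4.16 CPM at 21 °C, with a median of 2.53, and from 0 to 0.774 CPM at 37 °C, with a median of 0.637, a change of -2.22 ± 0.69 on the log2 scale (edgeR adjusted p = 0.00568). ARR3 ranged from 1.09 to 2.96 CPM at 21 °C, with a median of 2.27, and from 0 to 0.890 CPM at 37 °C, with a median of 0.453, a change of -2.14 ± 0.68 (edgeR adjusted p = 0.00713). In both cases the groups did not overlap. ARR8 rose by 0.96 ± 0.20 on the log2 scale, 1.95-fold (edgeR adjusted p = 6.13e-05), although the ranges of its libraries overlapped. The tested regulators thus gave 1 higher and 2 lower of 7, beside 52.1% of all genes tested that changed, 25.1% higher and 27.1% lower.

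The change of ARR8 with heat in Col-0 nuclei was 0.30 ± 0.20 (edgeR adjusted p = 0.221), and the difference between the genotypes in that response was 0.67 ± 0.28 with an adjusted p of 0.233 by edgeR, so a different heat response was not shown. In the cytoplasm ARR8 changed by -0.21 in Col-0, with an interval from -0.59 to 0.18 and an edgeR adjusted p of 0.417. In tho5ab cytoplasm the change was 0.15, from -0.24 to 0.53, with an edgeR adjusted p of 0.58, and its direction turned on unscaled library totals, -0.45, and with the compared groups fitted alone, -0.0122. With the compared groups fitted alone the Col-0 changes passed, -0.40 in cytoplasm (edgeR adjusted p = 0.0199) and 0.41 in nuclei (edgeR adjusted p = 0.0244). Its mean cytoplasmic share of counts was lower at 37 °C in both genotypes, while its TMM-scaled level did not pass the test in either.

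ARR4 was the 1 regulator that changed with heat in the cytoplasm. In Col-0 it ranged from 10.7 to 41.9 CPM at 21 °C, with a median of 19.3, and from 1.62 to 13.8 CPM at 37 °C, with a median of 7.83. In tho5ab it ranged from 8.43 to 29.9 CPM at 21 °C, with a median of 14.8, and from 1.13 to 10.3 CPM at 37 °C, with a median of 3.85. The heated libraries were mostly lower, with some overlap in both genotypes. The log2 changes were -1.50 ± 0.38 in Col-0 (edgeR adjusted p = 0.00103) and -1.76 ± 0.42 in tho5ab (edgeR adjusted p = 0.000698). That was 1 of 7 in each genotype, lower, beside 44.4% of all genes tested in Col-0 that changed, with 19.7% lower, and 42.1% in tho5ab, with 20% lower. The other relatives rested on 15 counts or fewer per cytoplasmic library, and their intervals were wide: ARR7 in Col-0, for example, changed by 0.54 with an interval from -1.56 to 2.64. In nuclei ARR4 changed by -0.69 ± 0.31 in Col-0 and -0.29 ± 0.31 in tho5ab, neither past the threshold.

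**Figure D4:**
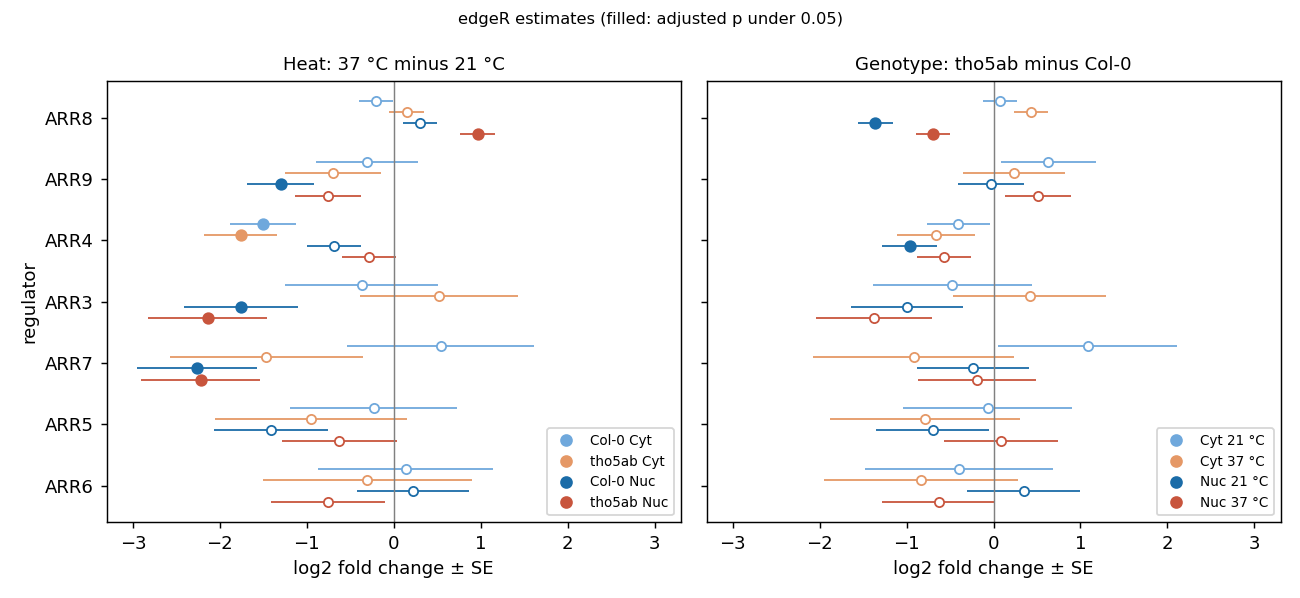
Log2 change of the 7 tested regulators with heat (left) and between the genotypes (right), with bars of 1 SE; filled points passed an adjusted p of 0.05 (edgeR). ARR3 and ARR7 fell with heat in nuclei of both genotypes, ARR4 in the cytoplasm of both, and ARR8 was lower in tho5ab nuclei at both temperatures.

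Between the genotypes, ARR8 was lower in tho5ab nuclei and not in the cytoplasm. At 21 °C the nuclear means were 1379 ± 684 CPM in tho5ab and 3537 ± 669 CPM in Col-0 (SD, n = 6 each), a change of -1.36 ± 0.20 on the log2 scale, 2.57-fold lower (edgeR adjusted p = 8.40e-07). At 37 °C they were 2689 ± 559 and 4349 ± 884 CPM, a change of -0.69 ± 0.20, 1.62-fold lower (edgeR adjusted p = 0.0048). In the cytoplasm tho5ab minus Col-0 was 0.07 at 21 °C, with an interval from -0.31 to 0.46 (edgeR adjusted p = 0.893), and 0.43 at 37 °C, from 0.04 to 0.82 (edgeR adjusted p = 0.143), which without replicate 7 was 0.56 and passed (edgeR adjusted p = 0.0279). The difference of the genotype effect between nuclei and cytoplasm was itself tested. It was -1.43 ± 0.28 at 21 °C (edgeR adjusted p = 0.000431) and -1.12 ± 0.28 at 37 °C (edgeR adjusted p = 0.00318).

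Of the relatives, ARR4 was also lower in tho5ab nuclei at 21 °C. It ranged from 4.25 to 7.66 CPM there and from 9.47 to 13.6 CPM in Col-0, without overlap, a change of -0.97 ± 0.31 (edgeR adjusted p = 0.0208). This call did not hold without replicate 2, 5 or 6, or in the 32 libraries without high opposite-strand counts (-0.99, edgeR adjusted p = 0.0767). ARR9 changed by -0.03 ± 0.38 in the same comparison and ARR6 by 0.35 ± 0.65, neither past the threshold. With ARR8 that gave 2 of 7 regulators, both lower, beside 21.5% of all genes tested in either direction and 8.8% lower. At 37 °C it was 1 of 7, ARR8, beside 34.4% in either direction and 15.9% lower. In the cytoplasm 0 of 7 passed in edgeR at 21 °C, beside 3.58% of all genes tested, and 0 of 7 at 37 °C, beside 14.1%. At an unadjusted p under 0.05 these cytoplasmic counts were 0 and 1, and DESeq2 gave 0 in both.

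Of the cell type markers, some moved with ARR8 in the nuclei, while others did not pass or went the other way. The mesophyll markers (RBCS1A, RBCS3B, LHCB2.1, CAB3 and GLDP1, genes of photosynthesis and photorespiration) were all 5 detected and summed to group means of 1021 to 1387 CPM in nuclei and 16930 to 34920 CPM in the cytoplasm. At 21 °C LHCB2.1 was lower in tho5ab nuclei by -0.54 on the log2 scale (edgeR adjusted p = 0.0153) and CAB3 by -0.50 (edgeR adjusted p = 0.0474), while the other 3 did not pass. At 37 °C GLDP1 was lower by -1.18 (edgeR adjusted p = 3.52e-09) and RBCS3B higher by 0.87 (edgeR adjusted p = 2.28e-05). The part of these in the ARR8 difference was not tested. In bulk fractions fewer cells of a type and less RNA per cell cannot be told apart. With heat in tho5ab nuclei, where ARR8 rose, CAB3 rose by 1.86, LHCB2.1 by 0.80 and RBCS3B by 0.73 on the log2 scale, GLDP1 changed by -2.49, and RBCS1A did not pass (edgeR adjusted p = 0.0617). The phloem companion cell marker SUC2 averaged 61.2 CPM in Col-0 nuclei at 21 °C, from 44.1 to 70.0, and 38.4 CPM in tho5ab nuclei, from 34.2 to 42.0. At 37 °C the nuclear means of SUC2 were 12.9 CPM in Col-0 and 10.9 CPM in tho5ab, lower in the heated nuclei, as were ARR3 and ARR7. Its cytoplasmic means were also lower at 37 °C, where ARR4 alone of the relatives passed. They were 85.5 CPM at 21 °C and 20.7 CPM at 37 °C in Col-0, and 76.5 and 10.5 CPM in tho5ab. The part of SUC2-expressing cells in the change of the relatives was not tested. Summed markers ran from 6.72 to 16.4 CPM for roots and from 1.06 to 9.10 CPM for the shoot meristem, where WUS and CLV3 were at 0 in all cytoplasmic groups.

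For the relatives, few differences between fractions passed the threshold, and similar levels are not shown by this. Apart from ARR4, the tested relatives had 15 counts or fewer per cytoplasmic library, and their intervals were wide. ARR7 in Col-0 at 21 °C, for example, differed by 1.65 with an interval from -0.09 to 3.39. The number that passed also depended on how library totals were scaled. Cytoplasmic ARR4 in Col-0 at 21 °C averaged 21.3 CPM and nuclear ARR4 11.4 CPM, a nuclei minus cytoplasm difference of -0.90 ± 0.33 on the log2 scale (edgeR adjusted p = 0.0151). ARR9 was higher in those nuclei by 1.43 ± 0.48 (edgeR adjusted p = 0.00752). These were 2 of the 6 tested relatives beside 67% of all genes tested, 38.9% higher and 28% lower in nuclei. The ARR4 call did not hold without replicate 2 or 3, with DESeq2 size factors in edgeR (-0.47) or in DESeq2 (-0.47), and its direction turned to 0.45 on unscaled library totals; it passed in 11 of 16 alternatives. In tho5ab at 21 °C 1 of 6 passed, ARR4 at -1.46 ± 0.35 (edgeR adjusted p = 0.000247), beside 67.9% of all genes tested in either direction and 27.4% lower. On unscaled library totals this ARR4 difference was -0.27 and did not pass (edgeR adjusted p = 0.465).

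At 37 °C in Col-0 0 of 6 relatives passed in edgeR, beside 61.6% of all genes tested; at an unadjusted p under 0.05 there were also 0, and DESeq2 gave 1. In tho5ab at 37 °C 1 of 6 passed, ARR3 at -2.40 ± 0.81 (edgeR adjusted p = 0.00893), beside 63.9% in either direction and 26.9% lower. Its nuclear level there had a median of 0.453 CPM. Its cytoplasmic level there rested on 2 of 6 libraries, with at most 8 counts per library and a median of 0. Without replicate 4 the ARR3 difference was -1.27 and without replicate 7 -1.98, and on unscaled library totals it was -1.06, none of them past the threshold.

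Few regulators passed where differences of changes were tested. The genotype effect differed between fractions for 1 of 7 regulators at each temperature, ARR8 with the values above, beside 6.41% of all genes tested at 21 °C, with 1.9% in its direction, and 14.7% at 37 °C, with 4.81% in its direction. The heat effect differed between fractions in tho5ab for 2 of 7, beside 17% of all genes tested in either direction and 8.96% in theirs: ARR4 by 1.48 ± 0.53 (edgeR adjusted p = 0.0463) and ARR8 by 0.82 ± 0.28 (edgeR adjusted p = 0.0347). Over 16 alternative settings and left-out replicates the ARR4 value ranged from 1.08 to 1.84 and passed in 6, and the ARR8 value from 0.61 to 1.06 and passed in 9. Of the replicates left out 1 at a time, the ARR4 call was lost without replicate 1, 2, 5, 6 or 7 and the ARR8 call without 1, 2, 4 or 6. In Col-0 0 of 7 passed in edgeR, beside 16% of all genes tested, with 1 at an unadjusted p under 0.05 and 1 in DESeq2. The heat response differed between genotypes for 0 of 7 in edgeR in the cytoplasm, beside 4.02%, and for 0 of 7 in nuclei, beside 3.69%, with 0 and 1 at an unadjusted p under 0.05 and 0 and 0 in DESeq2. These comparisons share libraries with the pairwise ones above.

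AAGATNTT, in which N is any base, is a loose form of a core bound by type-B regulators. GAANNTTC is the core of a heat-shock element. The 250 bases before the annotated start were searched on both strands for both. They are shown for ARR8, which rose with heat in tho5ab nuclei, and for ARR7, which fell there and holds both motifs, from RefSeq (TAIR10.1) and in the direction of the gene; ARR8 is chr2:17221590-17221839 and ARR7 chr1:6579315-6579564. The capitals mark matches to either motif.
ARR8: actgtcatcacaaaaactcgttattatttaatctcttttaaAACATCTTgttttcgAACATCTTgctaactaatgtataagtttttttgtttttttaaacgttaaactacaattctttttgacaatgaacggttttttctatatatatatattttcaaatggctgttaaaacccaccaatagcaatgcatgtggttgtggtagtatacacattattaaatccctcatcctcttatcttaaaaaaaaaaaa
ARR7: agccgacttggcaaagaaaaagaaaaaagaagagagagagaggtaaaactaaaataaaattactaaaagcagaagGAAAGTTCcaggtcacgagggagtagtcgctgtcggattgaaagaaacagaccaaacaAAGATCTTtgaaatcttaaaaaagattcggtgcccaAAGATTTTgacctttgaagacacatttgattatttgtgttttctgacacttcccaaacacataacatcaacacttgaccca
ARR8 had 2 matches to AAGATNTT, starting 209 and 194 bases before the gene, and ARR7 had 2, at 117 and 81 bases, with 1 match to GAANNTTC at 175 bases. AAGATNTT was found in 5 of the 10 genes (also ARR6, ARR9 and ARR16) and in 12% of 27419 such windows. GAANNTTC was found in ARR7 alone of the 10 and in 9.55% of windows. ARR3, which also fell with heat in tho5ab nuclei, had no match to either, nor did ARR4. Read on the strand that gives AAGAT, both ARR8 matches have G at the N, whereas the 2 ARR7 matches have C and T. A match is a description of the letters, and binding was not tested.

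The rest of the cytokinin pathway was followed in 54 listed genes, of which 53 were in the table and 29 were tested. With heat, 6 rose and 7 fell in Col-0 cytoplasm, 4 rose and 11 fell in Col-0 nuclei, 5 rose and 6 fell in tho5ab cytoplasm, and 3 rose and 12 fell in tho5ab nuclei. In that order 13, 15, 11 and 15 of 29 changed, beside 44.4%, 45.7%, 42.1% and 52.1% of all genes tested, so the shares were near the background. The phosphotransfer gene AHP4 fell in each of the 4, with log2 changes of -2.07 for cytoplasm and -2.72 for nuclei of Col-0, and -1.94 and -3.55 for tho5ab. AHP1, another phosphotransfer protein, fell in nuclei, with log2 changes of -1.85 in Col-0 (edgeR adjusted p = 6.06e-05) and -2.08 in tho5ab (edgeR adjusted p = 1.18e-05). Among type-B regulators ARR14 fell in the cytoplasm, with -1.89 in Col-0 and -2.61 in tho5ab, and none of the 5 tested rose in nuclei. The biosynthetic gene IPT3 fell in the cytoplasm of both genotypes, with -2.04 and -1.82. In tho5ab nuclei CKX1, which degrades cytokinins, fell with -2.03 (edgeR adjusted p = 0.0117). Its libraries were widely spread and overlapped, from 1.69 to 9.63 CPM at 21 °C and from 0.488 to 4.14 CPM at 37 °C.

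Receptors and response factors did not all follow. AHK3 rose with heat in Col-0, with log2 changes of 1.22 for cytoplasm and 0.80 for nuclei, whereas AHK4 fell in Col-0 nuclei, with -1.82. CRF6, a cytokinin response factor known from stress responses, rose by 2.75 in Col-0 cytoplasm (edgeR adjusted p = 2.26e-06), by 1.21 in Col-0 nuclei and by 0.97 in tho5ab nuclei. Its relative CRF2 rose by 0.97 in tho5ab cytoplasm and 0.91 in tho5ab nuclei. ARR11, a type-B regulator, rose by 2.17 in Col-0 cytoplasm, AHP3 by 1.23 in tho5ab cytoplasm, and LOG1, which activates cytokinins, by 0.90 and 0.69 in tho5ab cytoplasm and nuclei. IPT9, a biosynthetic gene of the tRNA type, rose by 0.94 in Col-0 nuclei.

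Between the genotypes 0 of the 29 passed in edgeR in the cytoplasm at 21 °C, with 5 at an unadjusted p under 0.05 and 2 in DESeq2, and 2 were lower in tho5ab at 37 °C, AHK3 by -0.67 and ARR1 by -0.49. Over all genes tested 3.58% and 14.1% changed there. In nuclei 3 of 29 changed at 21 °C and 8 of 29 at 37 °C, beside 21.5% and 34.4% of all genes tested. The type-B regulator ARR1 was higher in tho5ab nuclei by 1.07 ± 0.15 on the log2 scale at 21 °C (edgeR adjusted p = 2.25e-07) and again by 1.07 at 37 °C (edgeR adjusted p = 6.54e-08). CRF2 was higher by 0.84 and 1.03. AHP4 was the third of 3 higher at 21 °C, by 0.79, with 0 lower, and IPT3 the third of 3 higher at 37 °C, by 1.35, with 5 lower that included IPT9 at -1.42, CKX7 at -0.84 and AHP5 at -0.73. In nuclei ARR8 was lower in tho5ab while ARR1 and CRF2 were higher, and a link between these differences was not tested.

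Between fractions, 10 of the 29 were higher in nuclei and 7 lower in Col-0 at 21 °C, and 7 and 7 at 37 °C. In tho5ab these counts were 12 and 8 at 21 °C and 8 and 9 at 37 °C. Over all genes tested 67% and 61.6% differed in Col-0, and 67.9% and 63.9% in tho5ab. All 3 receptors were higher in nuclei in each of the 4 comparisons, AHK2 by 2.84, 1.95, 2.57 and 2.07 in that order. AHP4 was lower in nuclei in each, by -2.87, -3.52, -2.68 and -4.28. The median over the 29 in Col-0 at 21 °C was 0.36, beside 0.42 over all genes.

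The genes whose levels were most like those of ARR8 were sought among tested genes with a mean of at least 3 on the log2 CPM scale, by Pearson correlation of log2 CPM over the 48 libraries. The first 5 were AT2G31141, an uncharacterized protein, with r = 0.995, LHCB6, a light-harvesting protein of photosystem II, with 0.994, PSAL, a photosystem I subunit, with 0.993, LHCA2, a light-harvesting protein of photosystem I, with 0.991, and AT1G64510 with 0.991. The 48 points fall into 2 fractions that stand far apart for each of these genes, and the correlations are given as a description. AT2G31141 had group means of 2705 to 3983 CPM in the cytoplasm and 125.6 to 241.6 CPM in nuclei, where tho5ab was below Col-0 in mean at both temperatures. LHCB6 likewise averaged 66.3 CPM in tho5ab and 123.5 CPM in Col-0 nuclei at 21 °C.

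**Figure D5:**
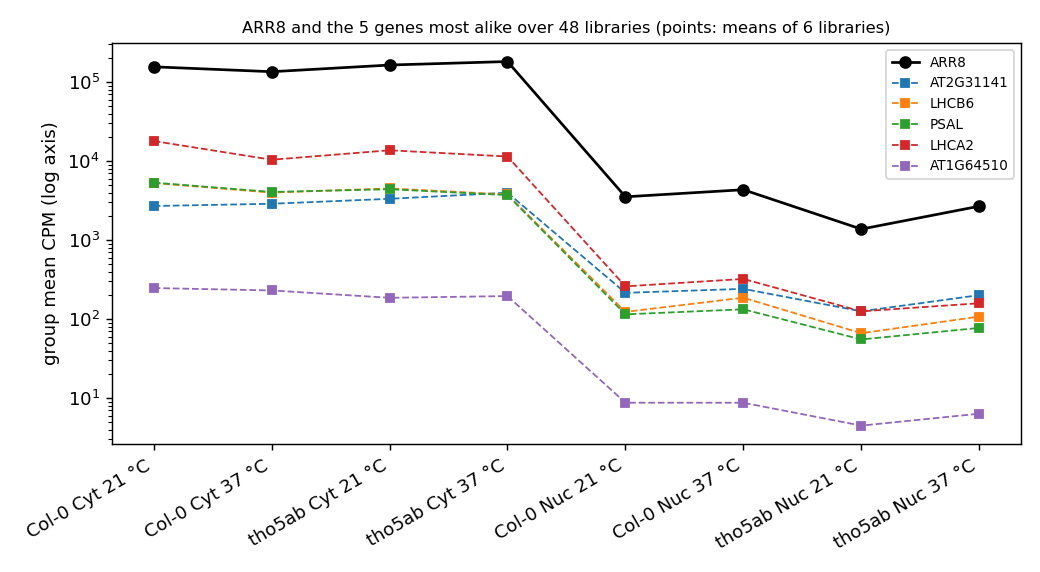
Group means of ARR8 and the 5 genes with the most similar levels over the 48 libraries, in CPM on a log axis, across the 8 groups. Each is high in the 4 cytoplasmic groups and low in the 4 nuclear groups, with the lowest mean in tho5ab nuclei at 21 °C.

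The genes next to ARR8 on chromosome 2 did not share its level. SSL1 (AT2G41300), 5547 bp away, had group means of 0.121 to 2.26 CPM. AT2G41330, 2067 bp away on the other side, had group means of 0.849 to 9.48 CPM. Neither exceeded 9 counts in any cytoplasmic library.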

How the data were processed

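The deposited table holds whole-number read counts per gene for 27420 genes in 48 libraries, made by the authors with STAR 2.7.8a, Picard, UMI-tools and featureCounts on TAIR10, per the submitters' processing notes; how strand and multiply matching reads were handled is not given in the sources used here. All 27420 identifiers matched the RefSeq annotation of TAIR10.1, from which positions and sequences come.

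Levels are CPM on TMM-scaled totals (scaling factors 0.455 to 0.795 in the cytoplasm, 1.24 to 1.83 in nuclei). Genes passing filterByExpr (17981) entered the quasi-likelihood F test of edgeR 4.0.16 in R 4.3.3, with 1 mean per group over 48 libraries, 12 pairwise contrasts and 6 differences of changes. P-values were adjusted over all genes tested (Benjamini-Hochberg, threshold 0.05), SE is the log2 change divided by the root of F, and intervals are 95% normal intervals from the SE. The scripts were tested on simulated data. DESeq2 1.42.0 (Wald test and size factors), unscaled totals, no filter, separate fits, an opposite-strand covariate, the 32 other libraries, a replicate block and each replicate left out were the alternatives. Near matches were found with blastn 2.17.0+.

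The text names the 10 regulators, the 5 top cytoplasmic genes, the 5 tested genes most correlated with ARR8 (mean log2 CPM of at least 3), neighbouring and overlapping genes, closest relatives by protein, and up to 3 cytokinin genes per direction and contrast. AT7SL-1 and AT1G49700 were added after their values were seen. The members and lists were chosen with earlier results of these data known. Same-numbered libraries were not paired in the tests. Of 148 same-numbered pairs, pooled over fractions, genotypes and temperatures, 41 had deviations correlated over 0.1.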

Additional observations from a re-analysis of the deposited data

Results flagged for a closer look

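In 53 sets of 6 libraries examined for a library far from the rest, 3 had one; chance gives about 1 in 20 sets. ARR6 reached 8.95 CPM in replicate 6 of Col-0 cytoplasm at 37 °C and 11.3 CPM in replicate 4 of tho5ab nuclei at 37 °C, each the highest of its group and each among the 16 libraries with high opposite-strand counts. ARR9 reached 15.4 CPM in replicate 5 of tho5ab cytoplasm at 21 °C, from 15 counts.

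The effect of a factor differed between fractions in 4 tests of the difference itself (edgeR). The tho5ab minus Col-0 change of ARR8 was more negative in nuclei than in cytoplasm by -1.43 on the log2 scale at 21 °C and by -1.12 at 37 °C. The heat change in tho5ab was higher in nuclei than in cytoplasm by 1.48 for ARR4 and by 0.82 for ARR8 on the log2 scale.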

How the results depend on the processing

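Over the alternatives, 391 values of single regulators kept direction and side of the threshold, 32 lost and 4 gained a call, and 4 turned direction; of the counts of regulators past the threshold per contrast, 238 stayed within 1.5 times and 50 moved. The lower ARR8 in tho5ab nuclei at both temperatures, and the difference of that effect from the cytoplasm, held in 16 of 16 alternatives. On unscaled library totals the mean ARR8 level was 109300, 84890, 121800 and 89270 CPM in the cytoplasm (Col-0 at 21 °C and 37 °C, then tho5ab) and 6292, 6937, 2379 and 3467 CPM in nuclei.

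Direction turned on unscaled totals for ARR8 with heat in tho5ab cytoplasm (-0.45), for ARR4 between fractions in Col-0 at 21 °C (0.45) and for the ARR8 genotype difference of the cytoplasmic heat change (-0.0836), and with the compared groups fitted alone for ARR8 with heat in tho5ab cytoplasm (-0.0122). Unscaled totals moved the median of all genes between fractions in Col-0 at 21 °C from 0.42 to 1.75 and with heat in tho5ab cytoplasm from -0.00736 to -0.558; the share of higher calls went from 58.1% to 83.2% and from 52.6% to 22.6%. With DESeq2 size factors that median between fractions was 0.85. The cause was not tested.

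Counts of regulators past the threshold were as follows. With heat, Col-0 cytoplasm had 1, and 2 with the compared groups alone; Col-0 nuclei had 3, and 5 on totals, 6 with the compared groups alone, 5 with the opposite-strand covariate and 5 in DESeq2. Between genotypes, nuclei at 21 °C had 2, and 1 in the 32 libraries; nuclei at 37 °C had 1, and 3 on totals, 3 alone, 2 with the covariate, 2 in the 32 libraries and 3 in DESeq2. Between fractions, Col-0 at 21 °C had 2, and 5 on totals; Col-0 at 37 °C had 0, and 3 on totals, 1 without a filter and 1 in DESeq2; tho5ab at 21 °C had 1, and 3 with size factors, 2 on totals, 2 with the covariate, 2 in the 32 libraries and 3 in DESeq2; tho5ab at 37 °C had 1, and 3 on totals, 0 alone and 2 in DESeq2. Heat by fraction in Col-0 had 0, and 1 alone and 1 in DESeq2; in tho5ab it had 2, and 0 with size factors, 1 without a filter, 0 alone, 1 with the replicate block and 1 in the 32 libraries.

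Left-out replicates gave counts of 1 to 3 between fractions in Col-0 at 21 °C, 0 to 1 at 37 °C, 1 to 2 in tho5ab at 21 °C and 0 to 3 at 37 °C; 2 to 3 with heat in Col-0 nuclei, 1 to 2 in tho5ab cytoplasm and 3 to 4 in tho5ab nuclei; 0 to 1 between genotypes in cytoplasm at 37 °C, 1 to 2 in nuclei at 21 °C and 1 to 2 at 37 °C; and 0 to 2 for heat by fraction in tho5ab. Without replicate 7 the ARR8 genotype difference in cytoplasm at 37 °C was 0.56 and passed.

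Whether same-numbered libraries share plants is not known from the number alone. Deviations of the 148 pairs correlated from -0.553 to 0.666, with a median of 0.018. These pairs pool fractions, genotypes and temperatures, so they cannot decide whether nuclei and cytoplasm of the same number were paired. The comparisons between fractions took no account of such pairing. The replicate block lost ARR3 with heat in Col-0 nuclei (-1.64, edgeR adjusted p = 0.0524) and ARR4 for heat by fraction in tho5ab (1.45, edgeR adjusted p = 0.0646). Depth limits the cytoplasm, where most relatives had under 10 counts per library.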
